A study of Mus musculus with 8 samples.

Results

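The miR-101 and miR-26 families are microRNAs known for repressing Ezh2, the enzyme of Polycomb repressive complex 2 that methylates histone H3. The 5 mouse entries mmu-miR-101a-3p, mmu-miR-101b-3p, mmu-miR-101c, mmu-miR-26a-5p and mmu-miR-26b-5p (written below without the species prefix) were taken by name from the 1881 mouse miRNAs on the array, together with all 10 of their probes. They were chosen with their difference between obstructed and sham kidneys already known, so that difference is described here and not tested. The samples were whole kidneys of male C57BL/6 mice aged 8 weeks, taken on day 7 after sham surgery (Sham) or after unilateral ureteral obstruction (UUO), the tying off of 1 ureter, a standard model of tubular injury and fibrosis. Each group had 4 samples with 1 array each, Sham 1, 2, 3 and 8 and UUO 1 to 4, and all 8 arrays lay on 1 slide with Sham in its first row of positions and UUO in its second, so slide row and group cannot be told apart. The labels do not say whether each sample came from its own mouse, so SDs and SEs below rest on the spread between these samples.

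A miRNA is loaded into an Argonaute protein and finds its targets mainly by pairing of its seed, the bases near its 5′ end, with a messenger RNA, whose translation or stability then falls. miR-101 and miR-26 are known as repressors of Ezh2 from work on tumours and other tissues, and miR-26 is encoded in introns of genes for small C-terminal domain phosphatases. Ezh2 has been studied in kidney fibrosis, but the array carried no messenger RNA probe, so Ezh2 itself was not measured.

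The mature sequences, from RefSeq on build GRCm38.p6, are shown because the family names hide differences in the seed. All 5 members were found among the 1679 mature mouse miRNAs of that table. Capitals mark the seed, bases 2 to 8.
miR-101a-3p: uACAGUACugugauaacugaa
miR-101b-3p: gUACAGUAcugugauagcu
miR-101c: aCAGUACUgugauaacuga
miR-26a-5p: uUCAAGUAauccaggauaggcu
miR-26b-5p: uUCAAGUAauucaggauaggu
miR-144-3p: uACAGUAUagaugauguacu
miR-26a-5p and miR-26b-5p shared 1 seed and differed by C11U and C21U, counted from the 5′ end of miR-26a-5p. The miR-101 entries had 3 different seeds, because their 5′ ends start at different bases of nearly the same sequence. The whole of miR-101c, 19 bases, was contained in miR-101a-3p at bases 2 to 20. miR-101b-3p started 1 base earlier than miR-101a-3p and differed from it by A16G, counted from the 5′ end of miR-101a-3p. miR-144-3p, a red blood cell miRNA, is added because it was the tested miRNA outside the families that shared bases 2 to 7 with a member, in its case with miR-101a-3p.

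The probes of miR-101a-3p and miR-101c could not separate these miRNAs by sequence. Probes are shown as the file gives them. Capitals mark bases that do not pair with miR-101a-3p for the miR-101 probes and with the other miR-26 member for the miR-26 probes. The 18-base miR-101b-3p, 15-base miR-26a-5p and 19-base miR-26b-5p probes are left out, each being the longer probe without 1 base at its 3′ end.
miR-101a-3p, 21 bases: ttcagttatcacagtactgta
miR-101a-3p, 20 bases: ttcagttatcacagtactgt
miR-101c, 19 bases: tcagttatcacagtactgt
miR-101c, 18 bases: tcagttatcacagtactg
miR-101b-3p, 19 bases: agCtatcacagtactgtaC
miR-26a-5p, 16 bases: AGcctatcctgGatta
miR-26b-5p, 20 bases: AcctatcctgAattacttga
Both miR-101c probes paired along their whole length with miR-101a-3p. The 19-base miR-101c probe was the 20-base miR-101a-3p probe without its first base, so these probes differed by 1 base. Signal at a miR-101c probe was therefore the signal of either RNA. The miR-26a-5p and miR-26b-5p probes each had bases that did not pair with the other member. On build mm9, which the array design uses, the files placed the 21-base miR-101a-3p probe at chr4:101019601-101019620, a span of 20 bases. They placed the 16-base miR-26a-5p probe at chr9:118940935-118940950 and at chr10:126432605-126432620, so its signal could come from either gene. The 20-base miR-26b-5p probe was at chr1:74440900-74440918, and the miR-101b-3p and miR-101c probes were listed without a position. In RefSeq GRCm38.p6 the hairpin of miR-101a lies within the long noncoding RNA gene E130102H24Rik and that of miR-101b within Rcl1. The hairpins of miR-26a lie within Ctdspl and Ctdsp2 and that of miR-26b within Ctdsp1, and the hairpin of miR-101c lay in no other gene of that table.

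Signals are given as log2 of the scaled signal. To scale an array, its signals were divided by the 75th percentile of 623 probes that all 8 arrays detected, where a probe counts as detected when more than 50% of its spots are well above background. A miRNA was represented by its brightest probe, and 408 miRNAs, those with detection on 4 or more arrays, were tested between groups. That filter passed 4 of the 5 members. Levels of different probes are not compared, since probes differ in how strongly they bind.

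In obstructed kidneys the signals of miR-101a-3p, miR-101c, miR-26a-5p and miR-26b-5p were lower than in sham kidneys, by 1.20-fold to 1.81-fold, and the groups of arrays did not overlap for any of the 4. The miR-101 probes differed most and miR-26a-5p least. Across all 408 tested miRNAs, 26.2% had non-overlapping groups with UUO lower, 35.0% had them with UUO higher, and 61.3% had them in either direction. By limma (Benjamini-Hochberg adjusted p under 0.05) 67.4% were called, and 27.7% were called lower. Nothing is read from the members' count against these shares, because the members were chosen on this contrast. The median log2 difference, UUO minus Sham, was −0.57 over the 4 members (−0.86 to −0.26) and 0.06 over all tested miRNAs. In whole tissue, fewer cells of a type and less of a miRNA per cell cannot be told apart.

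miR-101a-3p, on its 21-base probe, had log2 signals of 1.25, 1.32, 1.32 and 1.32 in Sham 1, 2, 3 and 8 and of 0.67, 0.81, 0.64 and 0.51 in UUO 1 to 4. The Sham arrays lay close together, and the UUO arrays lay below all of them and spread more widely. The log2 difference was −0.64 ± 0.07 (SE, n = 4 per group), a 1.56-fold lower signal in UUO. Before scaling, the Sham arrays had a mean intensity of 999.9 ± 21.6 (SD, n = 4) and the UUO arrays one of 733 ± 38.8 (SD, n = 4). The 20-base probe gave a log2 difference of −0.65.

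miR-101c, on its 19-base probe, had log2 signals of 1.36, 1.44, 1.41 and 1.42 in Sham 1, 2, 3 and 8. The UUO 1 to 4 arrays were at 0.57, 0.71, 0.56 and 0.36. The difference was −0.86 ± 0.07 (SE), a 1.81-fold lower signal, and −0.87 on the 18-base probe. Since these probes also pair fully with miR-101a-3p, the values do not show that miR-101c itself was present.

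miR-101b-3p was near background in both groups. Its 18-base probe had no spot well above background on any array. Its 19-base probe had intensities of 10.72, 12.9, 12.7 and 12.8 in Sham 1, 2, 3 and 8 and of 14.5, 11.2, 10.3 and 11.8 in UUO 1 to 4, so the groups overlapped. On UUO 1 73.3% of its spots were well above background, and on the other 7 arrays no more than 50% were. The software's own flag called this miRNA detected on all 8 arrays, and gave the Sham arrays a total signal of 3.50 ± 0.31 (SD, n = 4) and the UUO arrays one of 3.44 ± 0.51 (SD, n = 4). These intensities and totals are before any scaling between arrays, so their likeness does not show an unchanged level. With the scaling used here miR-101b-3p was not tested, and no change of it is read at this signal. By the flag it passed the filter for the software's total signal and for the deposited ratio table, but its difference there is not given here.

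miR-26b-5p, on its 20-base probe, had log2 signals of 2.76, 2.76, 2.69 and 2.84 in Sham 1, 2, 3 and 8 and of 2.28, 2.38, 2.26 and 2.14 in UUO 1 to 4. All UUO arrays lay below all Sham arrays. The difference was −0.49 ± 0.06 (SE), a 1.41-fold lower signal, and −0.51 on the 19-base probe. Before scaling, Sham arrays averaged an intensity of 2756 ± 148 (SD) and UUO arrays 2237 ± 93.2 (SD).

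miR-26a-5p, on its 16-base probe, had log2 signals of 4.13, 4.03, 3.99 and 4.17 in Sham 1, 2, 3 and 8 and of 3.84, 3.91, 3.79 and 3.72 in UUO 1 to 4. The lowest Sham array, Sham 3, was just above the highest UUO array, UUO 2. The difference was −0.26 ± 0.06 (SE), a 1.20-fold lower signal, and −0.27 on the 15-base probe. Before scaling the groups overlapped, with intensities of 7224, 6441, 6413 and 7439 in Sham and 6890, 6541, 6398 and 6352 in UUO. The miR-26a-5p difference therefore rests on the scaling.

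**Figure D1:**
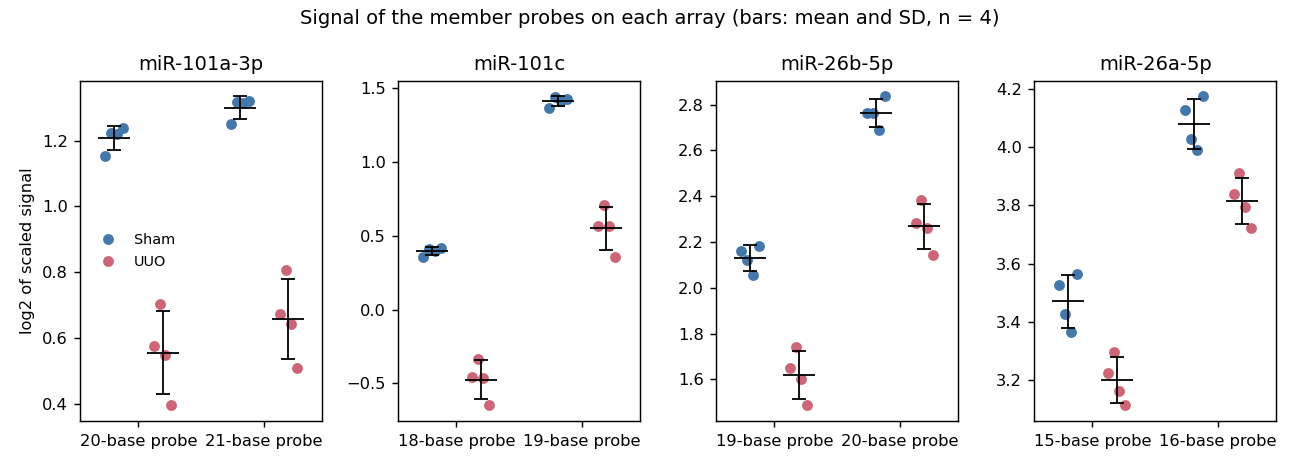
Log2 of the scaled signal (vertical axis, a separate range in each panel) for both probes of miR-101a-3p, miR-101c, miR-26b-5p and miR-26a-5p on the 4 Sham and 4 UUO arrays. Points are arrays and bars the mean and SD; for each probe the UUO points lie below the Sham points, with the narrowest gap for miR-26a-5p.

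The spread of the spots of 1 probe on 1 array was small beside these differences. Its coefficient of variation was 0.705 to 4.28% over the 8 probes of the 4 tested members, and 11 to 15 spots per probe were averaged. Within the UUO group the 4 tested members kept 1 order at its ends, with UUO 2 highest and UUO 4 lowest for 4 of 4. The same was so for 121 of the other 404 tested miRNAs (29.95%). Before scaling, UUO 1 was the highest UUO array for each of the 4 members and UUO 4 the lowest. The place of UUO 2 at the top therefore rests on the scaling. Deviations from the UUO mean ran from −0.19 (miR-101c on UUO 4) to 0.16 (miR-101c on UUO 2). Among the Sham arrays Sham 8 was highest for miR-101a-3p, miR-26a-5p and miR-26b-5p and Sham 2 for miR-101c, while Sham 1 was lowest for miR-101a-3p and miR-101c.

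Because a scaling factor cancels within an array, the difference between 2 members on the same array shows unequal change with no choice of factor. The level of such a difference depends on the probes, so only its change between the groups is read. The members did not move by the same amount. miR-101a-3p minus miR-101c lay between −0.12 and −0.09 on the Sham arrays and between 0.08 and 0.15 on the UUO arrays, a change of 0.22. The signal of the miR-101c probe was thus lower in UUO by more than that of the miR-101a-3p probe, and this also held between the 20-base and 19-base probes that differ by 1 base. miR-26a-5p minus miR-26b-5p lay between 1.27 and 1.37 in Sham and between 1.53 and 1.58 in UUO, a change of 0.23, so miR-26b-5p was lower in UUO by more than miR-26a-5p. miR-101a-3p minus miR-26a-5p changed by −0.38, and miR-101a-3p minus miR-26b-5p by −0.15. The groups did not overlap in any of the 6 member pairs. Among all 83028 pairs of tested miRNAs they did not overlap in 64.9%, so non-overlap of such a difference was common, and nothing particular to the members is read from it.

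The changes differed in size between pairs of probes. Between both probes of the same miRNA the change was 0.0073 to 0.017 in size for the 4 tested members, and the groups overlapped in each of these 4 pairs. Between miR-101a-3p and miR-101c probes it was 0.206 to 0.226 over 4 probe pairs. Between miR-26a-5p and miR-26b-5p probes it was 0.224 to 0.248 over 4 probe pairs. Between miR-101 and miR-26 probes it was 0.131 to 0.605 over 16 probe pairs, and in each of these pairs of different members the groups did not overlap, beside 65.7% of all pairs of detected probes of different tested miRNAs. Whether probe binding or the RNA bound differed between miR-101a-3p and miR-101c probes was not tested.

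**Figure D2:**
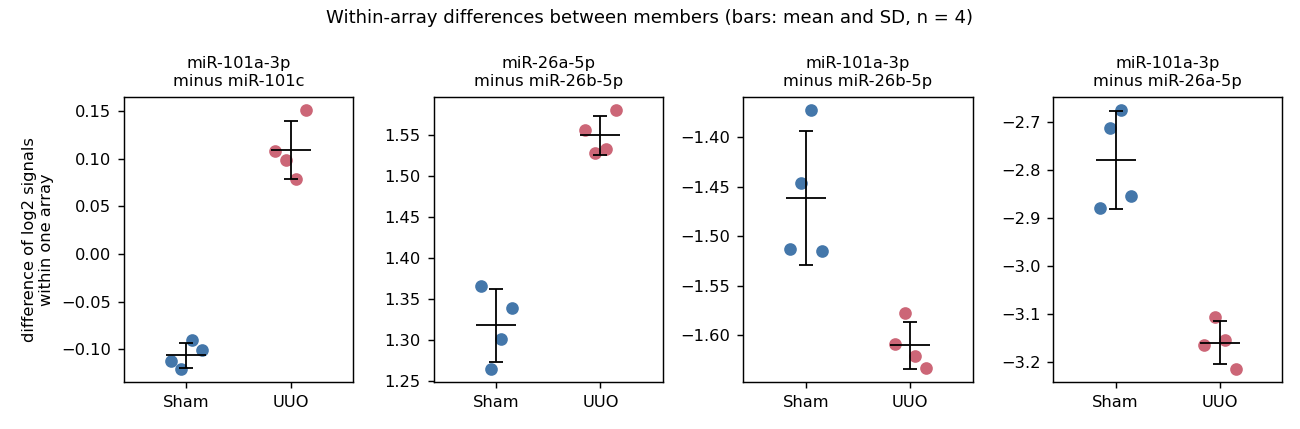
Difference of the log2 signals of 2 members within each array (vertical axis, a separate range in each panel) for the 4 Sham and 4 UUO arrays. Points are arrays and bars the mean and SD; the groups do not overlap in any panel, with changes of 0.22, 0.23, −0.15 and −0.38 from left to right.

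How far each member was below Sham depended on the scaling, and for miR-26a-5p so did the direction. Over 9 scalings or summaries of the same arrays the difference ran from −0.99 to −0.26 for miR-101a-3p and from −1.20 to −0.47 for miR-101c. It ran from −0.84 to −0.11 for miR-26b-5p and from −0.60 to 0.12 for miR-26a-5p, which was below 0 in 5 of the 9. The groups of arrays overlapped for miR-101a-3p, miR-101c and miR-26b-5p in 1 of 13 settings, the scaling to the dmr control features of the array, and for miR-26a-5p in 6 of 13. The median of all tested miRNAs moved over the same 9 settings, from −0.24 to 0.41. Relative to that median, miR-101a-3p lay at −0.74 to −0.66, miR-101c at −0.97 to −0.88, miR-26b-5p at −0.60 to −0.29 and miR-26a-5p at −0.36 to 0.05. Relative to the bulk of miRNAs the miR-101 probes were lower under each of these scalings, and miR-26a-5p was not lower under each. A factor per array largely cancels against that median, so settings that differ only by such a factor agree here in part by construction. With quantile normalization, which is no such factor, miR-101a-3p lay at −0.71, miR-101c at −0.97, miR-26b-5p at −0.29 and miR-26a-5p at 0.05. Of the 13 settings, 8 (the one reported here among them) leave the within-array changes as they are by construction. In the other 5, of which the total signal and the ratio table differ only by 1 factor per array, the change was 0.21 to 0.25 for miR-101a-3p minus miR-101c and 0.23 to 0.34 for miR-26a-5p minus miR-26b-5p.

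**Figure D3:**
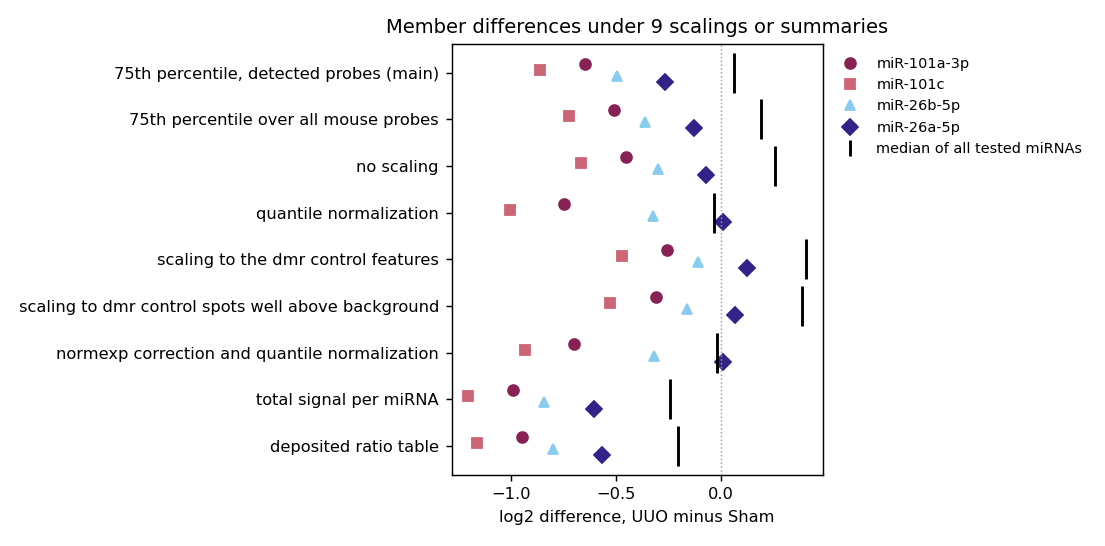
Log2 difference, UUO minus Sham (horizontal axis), of the 4 tested members under 9 scalings or summaries (vertical axis), with the median of all tested miRNAs as a black stroke. The order miR-101c, miR-101a-3p, miR-26b-5p, miR-26a-5p from left to right is the same in each line, in part by construction, while the whole set shifts with the scaling and miR-26a-5p lies above 0 in 4 lines.

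The other arms of the same hairpins were at or near background. miR-101a-5p, miR-101b-5p, miR-26a-1-3p, miR-26a-2-3p and miR-26b-3p were each detected on fewer than 4 arrays, so 0 of 5 were tested, and each was at the floor on all 8 arrays. By the software's own flag miR-101a-5p was detected on 4 of 4 Sham arrays, with total signals of 1.27, 1.59, 1.41 and 1.39 in Sham 1, 2, 3 and 8, and on UUO 1 with 1.15. It was not detected on UUO 2, 3 and 4, where the software sets 0.1. It was the 1 arm tested with the total signal and with the ratio table, which differ by 1 factor per array, and it was called lower by both. That call rests largely on the 0.1 set on UUO 2, 3 and 4, and 215 miRNAs in all were called lower with the total signal. The flag marked miR-26b-3p as detected on 2 Sham arrays and the remaining 3 arms on none.

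Among the other miRNAs described as repressors of Ezh2, calls were made in both directions with the scaling used here, and the split depended on the scaling. Of the 17 listed (let-7 and miR-98, miR-25, miR-30d, miR-124, miR-137, miR-138, miR-144, miR-214, miR-217), 13 were tested, 4 rose, 3 fell and 6 were not called, and their median log2 difference was −0.09 beside 0.06 for all tested miRNAs. Of all 408 tested, 39.7% rose and 27.7% fell, 162 and 113 miRNAs. That split became 123 and 158 with quantile normalization and 109 and 215 with the software's total signal, for which 499 miRNAs were tested. For the list the split of 4 higher and 3 lower became 10 and 0 with dmr spots well above background, 4 and 0 with all dmr features, 5 and 7 with quantile normalization and 3 and 9 with the total signal. Its median ran from −0.42 to 0.30 over the 9 scalings or summaries. The list was written with earlier results of these data known and is not independent evidence.

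The risers were miR-214-3p, let-7i-5p, miR-25-3p and let-7e-5p. miR-214-3p, a miRNA of fibroblasts and other mesenchymal cells, had log2 signals of −2.38, −2.38, −2.38 and −2.31 in Sham and of 0.04, 0.04, −0.07 and 0.21 in UUO. All UUO arrays were far above all Sham arrays. It rose by 2.42 ± 0.06 (SE) on the log2 scale, 5.35-fold (limma adjusted p = 3.07e-08). let-7i-5p rose by 1.09 ± 0.06 (limma adjusted p = 1.04e-06) and miR-25-3p, of the miR-106b cluster, by 0.74 ± 0.04 (limma adjusted p = 1.97e-06). let-7e-5p rose by 0.36 ± 0.05 (limma adjusted p = 0.000334), but was not called with the software's total signal (adjusted p = 0.737) or the deposited ratio table (adjusted p = 0.32), in a range of 6.32e-05 to 0.737 over 23 alternatives. The let-7 miRNAs differ by few bases, so the split of signal between their probes is uncertain.

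The miRNAs that fell were miR-144-3p, let-7g-5p and miR-30d-5p. miR-144-3p, which shares bases 2 to 7 with miR-101a-3p, had log2 signals of −2.04, −2.04, −1.68 and −2.29 in Sham and of −3.00, −2.14, −2.92 and −3.23 in UUO. UUO 2 lay within the Sham range, so the groups overlapped. The difference was −0.81 ± 0.23 (SE, limma adjusted p = 0.0147). It was not called with no filter on low signals (adjusted p = 0.162), with the replicate number as a block (adjusted p = 0.0691) or under either scaling to the dmr controls (adjusted p = 0.285 and 0.0645), in a range of 0.000784 to 0.285 over 23 alternatives. miR-144-3p is made with miR-451a from 1 locus in red blood cells. miR-451a differed by −0.84 ± 0.20 (limma adjusted p = 0.00592), was also highest in UUO 2 among the UUO arrays, and the part of red blood cells in this result was not tested.

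let-7g-5p fell by 0.49 on the log2 scale (SE 0.06, limma adjusted p = 0.000101). miR-30d-5p, of a family abundant in kidney epithelium, fell by 0.48 (SE 0.08, limma adjusted p = 0.00108). Both were not called under either dmr scaling, where none of the list fell. Without UUO 2 the list had 5 that fell, with let-7a-5p and let-7f-5p added. let-7a-5p, let-7b-5p, let-7c-5p, let-7d-5p, let-7f-5p and miR-98-5p were not called, with log2 differences of −0.13 to −0.02. miR-124-3p, miR-137-3p, miR-138-5p and miR-217-5p were at the floor on all 8 arrays and not tested.

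**Figure D4:**
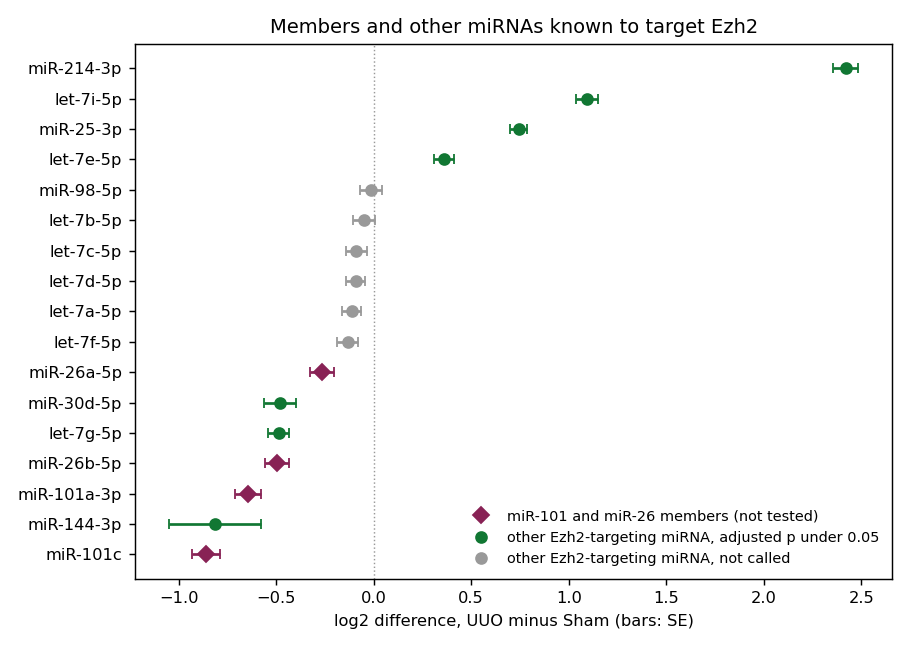
Log2 difference, UUO minus Sham, with its SE (horizontal axis) for the 4 tested members and the 13 tested miRNAs of the list of other Ezh2 repressors (vertical axis, sorted). Diamonds are the members, described without a test; miR-214-3p is at 2.42 and miR-101c at −0.86.

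The tested miRNAs whose profile over the 8 arrays was most like the mean of the 4 tested members were, by Pearson's r, miR-29b-3p (0.999), miR-29c-3p (0.998), let-7g-5p (0.998), miR-365-3p (0.996) and miR-33-5p (0.995). These r values describe 8 arrays that fall into 2 groups and share their scaling factors, and were used to choose the names. The log2 differences were −0.68 for miR-29b-3p and −0.91 for miR-29c-3p, which are known to repress collagen genes. They were −1.04 for miR-365-3p and −0.71 for miR-33-5p, a miRNA of the sterol regulator gene Srebf2. By the deviations from the group means, which leave the group difference out, the most alike were miR-450a-5p (0.993), miR-29b-3p (0.987), let-7d-5p (0.984), miR-22-5p (0.981) and miR-29c-3p (0.972). miR-29b-3p and miR-29c-3p were among the 5 by both measures. let-7d-5p had a log2 difference of −0.09 and was not called (limma adjusted p = 0.13), and its sign turned under 6 of the other 8 scalings or summaries, among them quantile normalization (0.12). miR-450a-5p was at −0.37 and miR-22-5p at −0.31, and each of these turned above 0 under the scaling to all dmr control features.

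Markers of the cell types a kidney holds moved with the group as well, with the scaling used here. Of all 408 tested miRNAs, 39.7% were called higher and 27.7% lower. Calls lower among all tested miRNAs ran from 15 to 215 over the 9 scalings or summaries, and calls higher from 109 to 244. How far the marker calls and sums depend on the scaling is not shown here. Of the kidney tubule list, miR-192-5p and miR-194-5p fell and miR-204-5p was not called, and the summed scaled signal of the 3 was 12.9 to 15.6 in Sham and 5.70 to 7.77 in UUO. Such a sum is carried by the brightest probes of a list, here those of miR-192-5p and miR-194-5p. The dimmer miR-204-5p had a log2 difference of 0.10. miR-192-5p was at 2.12, 2.33, 2.22 and 1.86 on the log2 scale in UUO 1 to 4, with UUO 2 highest and UUO 4 lowest, an order seen in 29.95% of the tested miRNAs outside the families. miR-204-5p, at −2.04, −1.95, −2.10 and −1.96, did not have that order. Of the epithelium list, the miR-200 family, 3 of 5 fell and 2 were not called, with a sum of 22.9 to 25.7 in Sham and 18.6 to 21.1 in UUO. Of the leukocyte list 6 of 6 rose, with a sum of 1.68 to 1.91 in Sham and 7.08 to 8.06 in UUO. Its member miR-511-3p was at the floor on all Sham arrays.

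Of the fibroblast and smooth muscle list, which holds miR-214-3p too, 4 of 5 rose, with a sum of 5.38 to 5.99 in Sham and 13.5 to 15.5 in UUO. Of the red blood cell list, which holds miR-144-3p too, 2 of 3 were called lower, with a sum of 3.71 to 5.46 in Sham and 2.12 to 3.84 in UUO, and miR-486a-5p of that list was at the floor on 4 of the 8 arrays. Of the endothelium list 1 of 2 was called lower, with a sum of 12.5 to 13.2 in Sham and 10.67 to 12.4 in UUO. The part of the makeup of cells in the members' differences was not tested.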

How the data were processed

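Total RNA of the 8 kidney samples was labelled with Cy3 and hybridized to a 1-colour Agilent miRNA array. The spot intensity values were made by the authors with Agilent Feature Extraction 10.7.3.1, per the file headers, with a spatial background surface subtracted and no scaling between arrays. The series' deposited table gives a ratio per miRNA, which equalled the software's total signal times 1 factor per array over the miRNA's median (403 miRNAs, largest log2 residual 9.88e-06); how the authors set that factor is unknown here. Its column medians were 1.11, 1.26, 1.28 and 1.11 in Sham 1, 2, 3 and 8 and 0.809, 0.903, 0.867 and 0.766 in UUO 1 to 4, and it served as an alternative.

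Control spots and outlier spots (2.64 to 2.95% of the spots on an array) were dropped before averaging the spots of each probe. After scaling, signals were raised to a floor (log2 −4.89), the highest over arrays of the lowest detected signal. No spot was saturated, 720 to 800 of 4415 probes were detected per array, and no 2 arrays held identical values. Correlations over tested miRNAs were 0.991 to 0.999 within groups and 0.948 to 0.964 between them. The number of arrays limits the precision.

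UUO was compared with Sham with limma 3.58.1 in R 4.3.3 (lmFit and eBayes, group as the only term, n = 4 each), with Benjamini-Hochberg adjustment over 408 miRNAs and a threshold of 0.05. SEs are those of this fit, in which the variance of a miRNA is drawn toward a value shared by all tested miRNAs. The fit was also checked on simulated data, with changes planted up and down and independent noise. No scaling step was simulated, so that check says nothing about the dependence on scaling. The members and lists were chosen with earlier results of these data known. Named were all members, called miRNAs of the Ezh2 list, the 5 most alike over arrays and the 5 by deviations, and tested miRNAs sharing bases 2 to 7 with a member. Alternatives covered scaling, background, summary, floor, filter, each array left out and the replicate block. Of the 6 dmr control features, 2 had no spot well above background on any array, and the factor from all 6 ranged over 1.16 on the log2 scale. A version from spots well above background (range 0.23) was added after the results of the first had been seen, and both are given.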

Additional observations from a re-analysis of the deposited data

Results flagged for a closer look

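The 4 values of each group were checked for an array far from the others, for 18 tested miRNAs in 2 groups, 36 checks in all. The 18 were the tested members, the called miRNAs of the Ezh2 list and the most alike miRNAs. Tested miRNAs outside these sets, such as the other cell type markers, were not checked. Chance alone picks out about 1 in 20 groups. For miR-101a-3p, Sham 1 (1.25) lay apart from the other Sham arrays (1.32 each), with a gap of 0.939 of the group's range, above the 95% critical value of Dixon's test. For miR-214-3p, Sham 8 (−2.31) lay above the other Sham arrays (−2.38 each), with a gap of 0.987 of the range. Both gaps are small beside the differences between the groups.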

How the results depend on the processing

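The members' median log2 difference (−0.57) moved by more than the spread between replicates with the 75th percentile over all probes (−0.43), no scaling (−0.37), scaling to all dmr features (−0.18) or to dmr spots well above background (−0.24), total signal (−0.91) and the ratio table (−0.87). miR-26a-5p turned to 0.012 with quantile normalization and with normexp correction, 0.12 with all dmr features and 0.070 with dmr spots well above background. Leaving out 1 array gave medians of −0.61 to −0.52 and 4 of 4 members below 0. Leaving out Sham 1 and Sham 8 together, chosen after earlier results, also left 4 below 0.

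Calls lower among all tested miRNAs (113) became 15 with all dmr features, 51 with dmr spots well above background, 215 with total signal and 207 with the ratio table; calls higher (162) became 244 with dmr spots well above background. The median of all tested miRNAs turned to −0.033 with quantile normalization, −0.018 with normexp, −0.24 with total signal and −0.20 with the ratio table. Without 1 array, 147 to 171 were called higher and 106 to 117 lower.

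On the list of other Ezh2 repressors, calls lower (3) became 7 with quantile normalization and with normexp, 0 under both dmr scalings, 9 with total signal and the ratio table and 5 with a doubled floor; without 1 array they were 3 to 5. Calls higher (4) became 10 with dmr spots well above background and were 4 without any 1 array. Its median turned to 0.046 with the percentile over all probes, 0.10 with no scaling, 0.30 with all dmr features and 0.24 with dmr spots well above background. Of the other arms, 1 was tested and called lower with total signal and with the ratio table, largely through the 0.1 set where it was not detected.

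let-7d-5p turned to 0.044 with the percentile over all probes, 0.10 with no scaling, 0.12 with quantile normalization, 0.11 with normexp, 0.30 with all dmr features and 0.24 with dmr spots well above background. miR-22-5p turned to 0.074 and 0.021 under these dmr scalings, and miR-450a-5p to 0.019 with all dmr features. The cause of these changes was not tested.

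No pairing of the samples by replicate number was seen. Same-numbered Sham and UUO arrays 1 to 3 had correlations of deviations of −0.00081, 0.124 and −0.303, and no Sham array correlated best with its own number. With the number as a block over those arrays the members' median was −0.51. The block cannot change that median, since each number holds 1 array of each group. With it 142 were called higher and 84 lower, against 146 and 98 without the block. Dim signal limited miR-101b-3p and the other arms.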
